A study of Mus musculus with 6 samples.

Results

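The genes described here are 36 genes of chromosome segregation and cell division: 12 mitotic kinesins, 8 genes of spindle assembly including the kinases Aurka and Plk1, 5 cytokinesis genes, 9 genes of mitotic chromosome structure including 7 condensin subunits, and 2 genes of sister chromatid separation. They were taken by symbol from a list of names, and all 36 were found among the 24043 gene rows of the deposited table. RNA-seq had been run on embryonic stem (ES) cells of the mouse, pluripotent cells of the early embryo, in 3 wild-type libraries and 3 libraries labelled Q-KO, with a genotype given as lacking every G1 cyclin. Both groups were cultured in Knockout DMEM with CHIR99021, which inhibits GSK3, PD184352, which inhibits MEK, and the cytokine LIF. The labels do not say how many lines or clones each group comes from, which alleles were deleted, or whether replicates were grown separately. A p-value below therefore rests on the spread among these libraries alone. That spread may be technical in part, although wild-type replicate 3 differed from replicates 1 and 2 in Y-linked transcripts, as given below.

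At mitosis, condensin and topoisomerase II compact and untangle the replicated chromosomes, kinesin motors and microtubule-binding proteins build and position the bipolar spindle, and a central spindle with a contractile ring divides the cytoplasm. Most of the genes for this machinery are transcribed periodically, late in the cell cycle. In many of them this timing depends on a short promoter element, the cell cycle genes homology region (CHR), often together with CCAAT boxes bound by NF-Y. MuvB complexes bind the CHR, with pocket proteins when they repress and with B-MYB and FOXM1 when they activate. G1 cyclins with their CDKs phosphorylate pocket proteins. ES cells spend little of their cycle in G1 and divide rapidly.

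Promoter sequences show what the members have in common outside the expression values. RefSeq windows (GRCm38.p6) from 250 bases upstream to 50 bases downstream of the start were matched by symbol for 33 of the 36 members, all but Tpx2, Kif20a and Smc4. The CHR was searched as TTTGAA or TTCGAA, and the CCAAT box as CCAAT, each on both strands, and a match of one can share at most 1 base with a match of the other. A CHR match was found for 27 of the 33 members (81.8%), against 16.0% of the 8689 tested genes with a window. A CCAAT match was found for 21 of 33 (63.6%), against 44.2%, and both in 1 window for 21 of 33 (63.6%), against 6.86%. These are matches of letters, not measured binding sites. Below are the windows from 200 bases upstream to 30 bases downstream of the start, 5′ to 3′ on the gene's strand, with both motifs in capitals, for 5 members with a large fall and for Tacc3, the member with the smallest change in the fit with all 6 libraries.
Hmmr (chr11:40733408-40733637, minus strand): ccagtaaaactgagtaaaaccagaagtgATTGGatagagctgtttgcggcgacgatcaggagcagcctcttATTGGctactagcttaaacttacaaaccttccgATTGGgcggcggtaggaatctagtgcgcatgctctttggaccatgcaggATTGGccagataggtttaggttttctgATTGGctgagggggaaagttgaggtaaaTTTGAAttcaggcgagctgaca
Top2a (chr11:99024160-99024389, minus strand): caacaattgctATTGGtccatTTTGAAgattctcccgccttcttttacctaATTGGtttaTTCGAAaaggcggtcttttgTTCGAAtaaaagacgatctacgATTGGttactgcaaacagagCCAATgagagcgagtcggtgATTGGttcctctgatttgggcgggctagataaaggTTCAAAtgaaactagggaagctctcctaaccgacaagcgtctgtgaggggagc
Mki67 (chr7:135716350-135716579, minus strand): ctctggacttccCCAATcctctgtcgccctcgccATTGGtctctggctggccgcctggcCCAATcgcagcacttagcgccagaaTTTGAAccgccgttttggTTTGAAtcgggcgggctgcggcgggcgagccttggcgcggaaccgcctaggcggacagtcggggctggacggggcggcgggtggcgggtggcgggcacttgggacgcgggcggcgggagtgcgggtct
Kif20b (chr19:34922158-34922387, plus strand): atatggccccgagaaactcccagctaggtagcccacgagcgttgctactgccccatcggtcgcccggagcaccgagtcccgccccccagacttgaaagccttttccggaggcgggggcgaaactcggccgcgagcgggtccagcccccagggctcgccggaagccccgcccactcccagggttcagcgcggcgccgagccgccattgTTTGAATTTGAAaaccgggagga
Kif11 (chr19:37376182-37376411, plus strand): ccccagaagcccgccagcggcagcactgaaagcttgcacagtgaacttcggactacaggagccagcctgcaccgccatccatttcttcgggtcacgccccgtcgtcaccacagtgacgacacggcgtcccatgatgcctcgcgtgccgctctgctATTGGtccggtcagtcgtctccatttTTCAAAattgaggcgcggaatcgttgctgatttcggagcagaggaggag
Tacc3 (chr5:33657928-33658157, plus strand): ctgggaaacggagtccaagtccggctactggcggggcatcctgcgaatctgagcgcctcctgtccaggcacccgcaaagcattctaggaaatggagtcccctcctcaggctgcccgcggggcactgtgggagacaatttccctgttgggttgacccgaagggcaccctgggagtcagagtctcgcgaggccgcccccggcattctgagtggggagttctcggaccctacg
In the Hmmr window TTTGAA begins at base 9 of the transcript and 5 CCAAT boxes lie upstream, each read on the opposite strand as ATTGG, while the Kif20b window has TTTGAA back to back at bases 8 and 14 and no CCAAT box. Top2a has 4 CHR matches and Mki67 has 2. Kif11 has 1, read on the opposite strand as TTCAAA, beginning 19 bases before the start. Neither motif occurs in the window of Tacc3. Among the members past the test threshold 7 of 9 had a CHR match, and among the others 20 of 24. Those past the threshold without a CHR match were Nusap1 and Kif18a. The windows printed are not those of the largest falls alone. Kif15 (log2 change -0.85), Ckap5 (-0.83) and Nusap1 (-0.81) fell more than Kif11 (-0.80) and are not printed. Kifc1, which changed by only -0.13, had matches of both motifs.

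Before the comparison, the identity of the libraries was checked. The ES cell markers Pou5f1, Sox2 and Nanog were abundant in every library, and the summed level of 10 ES cell markers ran from 1773 to 2139 FPKM (fragments scaled to gene length and to library size) in wild-type and from 1855 to 2094 FPKM in Q-KO libraries. The summed level of 11 fibroblast feeder markers was 3.89 to 5.56 FPKM and 3.12 to 9.15 FPKM, and that of 10 markers of differentiated lineages 2.35 to 2.85 FPKM and 2.80 to 3.44 FPKM. No marker of either list was at 0 in all 6 libraries, and Dcn was at 0 in all wild-type libraries. Postn, Lum, Dcn, S100a4 and Twist2 among the feeder markers, and all lineage markers but Gata4, stayed below 1 FPKM in each library. Below that level Cdx2 was higher in every Q-KO library (0.393 to 0.805 FPKM) than in any wild-type library (0.018 to 0.049 FPKM). So was Pax6 (0.176 to 0.247 FPKM against 0.027 to 0.059 FPKM), while the other lineage markers had overlapping groups. Col1a1 (1.86 FPKM), Col1a2 (1.16 FPKM) and Col3a1 (1.35 FPKM) were highest in Q-KO replicate 1, against at most 0.168, 0.044 and 0.032 FPKM in the other libraries. Postn (0.389 against at most 0.013 FPKM), Dcn (0.272 against 0.007 FPKM) and Lum (0.087 against 0.018 FPKM) were also highest there. S100a4 and Twist2 were so only narrowly, and Thy1, Pdgfrb and Fbln2 were not. Pdgfrb was higher in every Q-KO library (0.931 to 1.279 FPKM) than in any wild-type library (0.133 to 0.755 FPKM). Thy1 was lower in every Q-KO library (0.819 to 1.364 FPKM against 1.415 to 2.746 FPKM). The part of these feeder transcripts in the results below was not tested. Among the G1 cyclins, Ccnd3 (53.4 to 141 FPKM in wild-type, 8.29 to 13.2 FPKM in Q-KO), Ccnd1 (21.1 to 40.6 and 7.73 to 9.74 FPKM) and Ccne2 (6.19 to 7.94 and 2.82 to 3.12 FPKM) were lower in Q-KO. Ccne1 was not (37.5 to 55.9 and 65.3 to 87.3 FPKM), and Ccnd2 was below 1 FPKM in each library. Gene-level values also count reads outside a deleted part, so they do not show which alleles were lost, and higher or lower below always refers to what the library labels call Q-KO. Wild-type replicate 3 differed from replicates 1 and 2 in several respects. Among the ES cell markers, Zfp42 was at 363 FPKM in it against 76.6 and 78.9 FPKM in those, and Dppa3 at 273 FPKM against 43.0 and 113 FPKM. It had Y-linked transcripts (98.6 FPKM summed over 5 genes, as the Q-KO libraries did with 43.3 to 70.5 FPKM), whereas those transcripts were listed at 0 in wild-type replicates 1 and 2. The presence of Y-linked transcripts is thus partly confounded with the group. In wild-type replicate 3, genes on chromosomes 8 and 11 were also higher than in the other wild-type libraries (median log2 difference 0.25 on each, against -0.12 to 0.02 on the other chromosomes).

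All 36 members were lower on average in the Q-KO libraries, and 9 of them fell past an adjusted p of 0.05 in limma's test over the 11573 genes whose mean reached 1 FPKM. None rose in that test, nor at an unadjusted p under 0.05, where 21 members were lower. At that unadjusted p, 775 of all 11573 genes were lower and 1718 higher. In the adjusted test 1.02% of all genes fell and 3.04% rose. The members that fell were the kinesins Kif20b, Kif15, Kif11 and Kif18a, the spindle genes Hmmr, Ckap5 and Nusap1, and the chromosome genes Mki67 and Top2a. The median log2 change of the 36 (Q-KO minus wild-type, on the log2(FPKM + 1) scale) was -0.46, from -1.14 for Hmmr to -0.07 for Tacc3, while the median over all genes tested was 0.07 and 40.7% of them were below 0. All 36 passed the filter on low values, and no member had a group mean below 3.34 FPKM, so none passed through one group alone. For 22 members every Q-KO value was below every wild-type value, against 9.44% of all genes. In bulk RNA, fewer cells in mitosis and less of these transcripts per cell cannot be told apart.

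**Figure D1:**
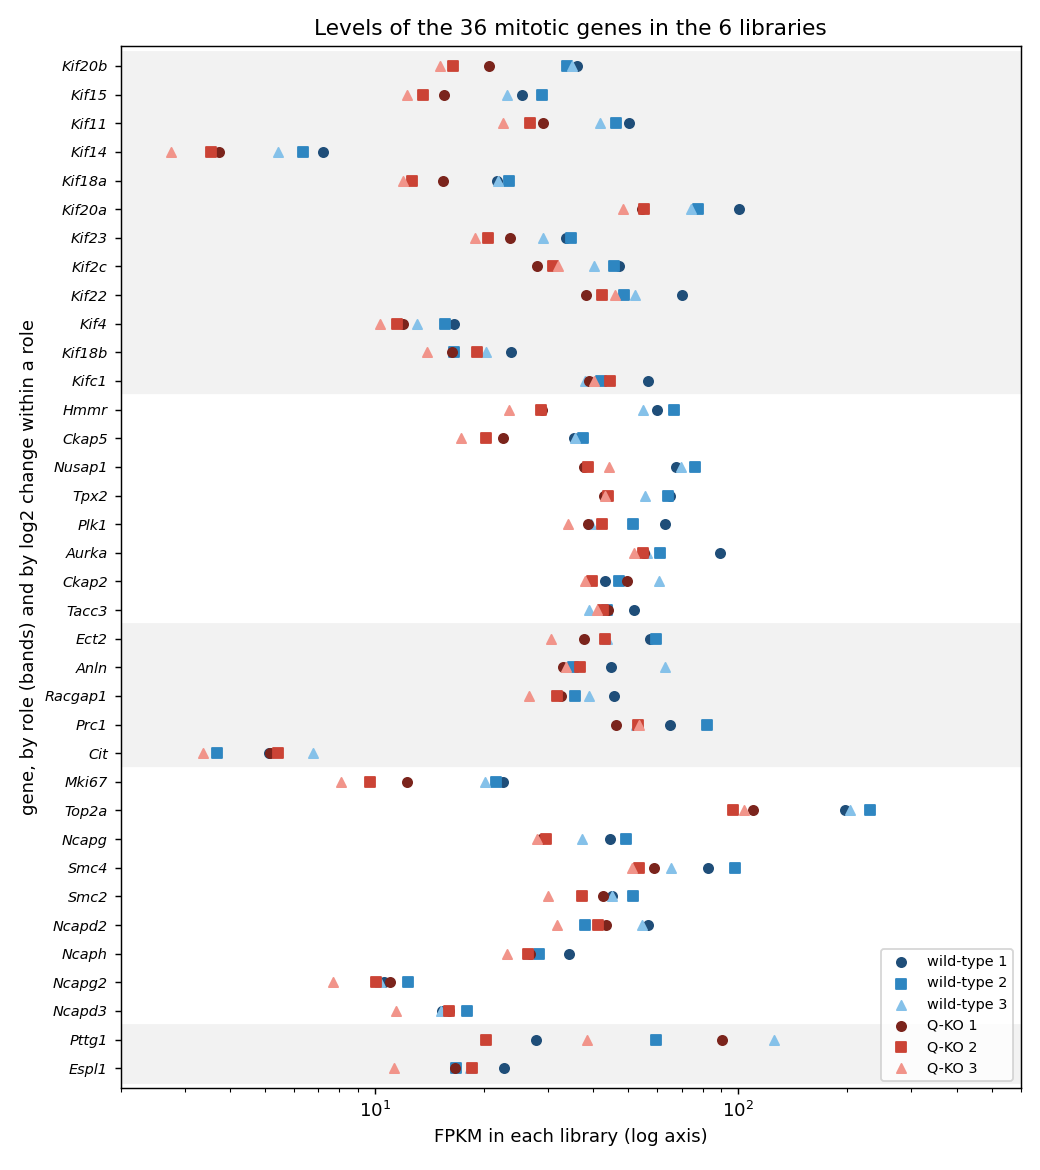
FPKM (log axis) of each of the 36 genes in the 3 wild-type libraries (blue) and the 3 Q-KO libraries (red), 1 point per library, with genes in bands by role (kinesins, spindle, cytokinesis, chromosome structure, sister separation). For 22 genes every red point lies left of every blue point, and Q-KO replicate 3 (pale red triangle) is the lowest of the 6 libraries for 26 genes.

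Of the 12 kinesins 4 fell in limma's test, against 1.02% of all genes. At an unadjusted p under 0.05, 10 of them were lower, against 775 of all 11573 genes. Among the motors, Kif20b, a kinesin-6 family member of cytokinesis, changed most. Its level was 36.04, 33.8 and 34.9 FPKM in the wild-type libraries, in the order of their replicate numbers, and 20.7, 16.5 and 15.1 FPKM in the Q-KO libraries (log2 change -0.97, SE 0.15, limma adjusted p = 0.0147). The 3 wild-type libraries were close to each other, and every Q-KO library was well below them. Kif11, the tetrameric motor that pushes spindle poles apart, was at 50.2, 46.3 and 41.7 FPKM in wild-type against 29.2, 26.7 and 22.5 FPKM in Q-KO (-0.80, SE 0.14, limma adjusted p = 0.0255). Kif15, which can support the bipolar spindle beside Kif11, was at 25.4, 28.8 and 23.1 FPKM and at 15.6, 13.6 and 12.3 FPKM (-0.85, SE 0.15, limma adjusted p = 0.022). Both motors of spindle bipolarity thus fell, with no overlap between groups. Kif18a, which dampens chromosome movements at kinetochore microtubule ends, was at 21.8, 23.5 and 21.9 FPKM in wild-type against 15.4, 12.7 and 12.0 FPKM in Q-KO (-0.71, SE 0.14, limma adjusted p = 0.0343).

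The other 8 kinesins did not pass. In 6 of them every Q-KO value was below every wild-type value, against 9.44% of all genes. Kif14, which works with Prc1 and citron kinase at the midbody, was the least abundant motor, at 6.33 ± 0.90 FPKM in wild-type against 3.34 ± 0.51 FPKM in Q-KO (mean ± SD, n = 3; log2 change -0.76, limma adjusted p = 0.0537). Kif20a, which carries the chromosomal passenger complex to the central spindle, was the most abundant, at 84.1 ± 14.3 and 52.6 ± 3.86 FPKM (-0.66, limma adjusted p = 0.0552). Kif23, the motor of centralspindlin (-0.61, limma adjusted p = 0.0541), and the microtubule depolymerase Kif2c (-0.53, limma adjusted p = 0.0613) were also just outside the threshold. Kif20a shares 31.8% of its exon bases with Cdc23 on the other strand in the reference annotation, so without a stated strand setting its value is uncertain. The chromokinesins Kif22 (-0.41) and Kif4 (-0.38), which push on chromosome arms, were further from it. Kif18b, a depolymerizing partner at astral microtubule ends, was at -0.28 with overlapping groups. The minus-end motor Kifc1 moved least of the motors. Its levels were 56.7, 42.1 and 38.0 FPKM in wild-type against 38.9, 44.5 and 40.1 FPKM in Q-KO (-0.13, SE 0.17, limma adjusted p = 0.711), so that wild-type replicate 1 alone stood above the Q-KO range. The value of Kifc1 is uncertain because its transcript is 96.8% identical to that of Kifc5b over 97.7% of its length.

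In the spindle group the falls were those of 3 microtubule-binding proteins among 8 genes, against 1.02% of all genes. Of the 8, 4 were lower at an unadjusted p under 0.05, against 775 of all 11573 genes. Hmmr, a protein of spindle poles, had the largest change of all members with all 6 libraries, with 59.8, 66.9 and 54.8 FPKM in wild-type against 28.8, 28.8 and 23.4 FPKM in Q-KO (-1.14, SE 0.14, limma adjusted p = 0.0101). Its Q-KO mean was 44.6% of the wild-type mean, and its lowest wild-type library, replicate 3, was still far above the highest Q-KO library. Mki67 changed slightly more with Q-KO replicate 1 left out (-1.187 against -1.185), and Pttg1 did with a term for Y-linked transcripts (-1.58, limma adjusted p = 0.214, against -0.9996). Ckap5, the microtubule polymerase also known as ch-TOG, was at 35.5, 37.5 and 35.7 FPKM and at 22.5, 20.3 and 17.2 FPKM (-0.83, SE 0.14, limma adjusted p = 0.0189). Nusap1, which bundles microtubules near chromosomes, was at 67.5, 76.2 and 69.9 FPKM and at 37.7, 38.8 and 44.2 FPKM (-0.81, SE 0.13, limma adjusted p = 0.0155). For Nusap1 the Q-KO replicate with the highest level was replicate 3, which for most members was the lowest. Tacc3, the spindle partner of Ckap5, was at 51.7, 43.6 and 39.0 FPKM in wild-type against 43.9, 42.5 and 41.0 FPKM in Q-KO (-0.07, SE 0.14, limma adjusted p = 0.821), with all Q-KO libraries inside the wild-type range. The change of Ckap5 thus passed the test and that of its partner did not, although the difference between the 2 changes was not tested.

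Tpx2, which activates Aurora A and starts microtubule growth near chromosomes, was at 61.6 ± 5.13 FPKM in wild-type against 43.2 ± 0.61 FPKM in Q-KO without overlap (-0.50, limma adjusted p = 0.0635). The Aurora A kinase gene Aurka was at 68.9 ± 18.0 and 54.0 ± 1.83 FPKM (-0.32, limma adjusted p = 0.356), and its wild-type spread came from replicate 1, at 89.5 FPKM against 61.1 and 56.2 FPKM. Plk1, the polo-like kinase of mitotic entry and exit, changed by -0.39 (limma adjusted p = 0.262), with wild-type replicate 3 (39.6 FPKM) inside the Q-KO range. Ckap2, another microtubule-associated protein, changed by -0.24 with overlapping groups. Both mitotic kinases therefore had smaller changes than the 3 spindle proteins that passed, with SEs of 0.18. Plk1, Ckap2, Kif2c, Kif11 and Top2a have pseudogenes or other copies 85.02% to 93.39% identical over part of the transcript, and exons of Prc1, Kif4, Tacc3, Nusap1 and Plk1 overlap genes of the other strand, so reads may be split there and these values are uncertain to that extent.

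None of the 5 cytokinesis genes passed limma's test. With 1.02% of all genes lower in it, 0 of 5 does not set them apart from all genes. At an unadjusted p under 0.05, 2 were lower, against 775 of all 11573 genes. Ect2, the exchange factor that activates RhoA at the division plane, had the largest change with all 6 libraries, from 57.2, 59.4 and 43.6 FPKM in wild-type to 37.7, 43.2 and 30.6 FPKM in Q-KO (-0.51, SE 0.18, limma adjusted p = 0.149). The groups did not overlap, but the lowest wild-type library and the highest Q-KO library were almost level. With wild-type replicate 2 left out Anln changed more (-0.61, against -0.43 for Ect2), as it did with Q-KO replicate 3 left out (-0.40 and -0.38) and with a term for Y-linked transcripts (-0.86 and -0.24). Racgap1, the centralspindlin partner of Kif23, also had separate groups (-0.39, limma adjusted p = 0.176). Anln, the ring scaffold anillin (-0.42), and Prc1, which bundles antiparallel microtubules (-0.36), had overlapping groups, and Anln ranged from 35.1 to 63.1 FPKM among wild-type libraries. Cit, the citron kinase of the midbody, was at 5.11, 3.68 and 6.79 FPKM in wild-type against 5.14, 5.44 and 3.36 FPKM in Q-KO (-0.12, SE 0.24, limma adjusted p = 0.804), the least abundant wild-type mean of the 36. No order between the groups could be seen for it.

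Changes among the chromosome structure genes differed widely, and 2 of the 9 fell, against 1.02% of all genes. Of the 9, 5 were lower at an unadjusted p under 0.05, against 775 of all 11573 genes. Top2a, the topoisomerase that decatenates sister chromatids, was the most abundant member, with 197, 231 and 204 FPKM in wild-type against 110.0, 97.1 and 104 FPKM in Q-KO (-1.01, SE 0.13, limma adjusted p = 0.0101). Mki67, the surface protein of mitotic chromosomes used as a proliferation marker, was at 22.5, 21.6 and 20.2 FPKM and at 12.3, 9.69 and 8.08 FPKM (-1.04, SE 0.17, limma adjusted p = 0.0173). For both, the Q-KO mean was less than 50% of the wild-type mean (49.2% for Top2a, 46.8% for Mki67) and the groups were far apart.

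The condensin subunits, which make the ring complexes that loop and compact chromatin, had 0 calls among 7 members in limma's test. With 1.02% of all genes lower in it, 0 of 7 does not set them apart from all genes. At an unadjusted p under 0.05, 3 were lower, against 775 of all 11573 genes. Smc4 and Smc2, the ATPase pair shared by condensin I and II, changed by -0.57 (limma adjusted p = 0.104) and -0.37 (0.222), and both had separate groups. Of the subunits specific to condensin I, Ncapg was at 43.7 ± 6.05 and 28.8 ± 0.78 FPKM without overlap (-0.58, limma adjusted p = 0.0612), while Ncapd2 (-0.34) and Ncaph (-0.21) overlapped. In the reference annotation Ncapg shares 20.8% of its exon bases with Lcorl on the other strand, and its value is uncertain in the same way as that of Kif20a. Of the condensin II subunits, Ncapg2 changed by -0.20, and Ncapd3 was at 15.4, 17.9 and 15.2 FPKM in wild-type against 16.1, 16.0 and 11.5 FPKM in Q-KO (-0.16, SE 0.17, limma adjusted p = 0.629). Only Q-KO replicate 3 lay below the wild-type range of Ncapd3. Per length, the mean level of the 3 condensin I subunits was 1.63, 1.495 and 1.62 times that of the condensin II subunits (Ncapd3, Ncapg2 and Ncaph2) in wild-type libraries and 1.51, 1.38 and 1.21 times in Q-KO libraries. The groups overlapped narrowly, and the difference was not tested because the subunits were chosen with results known.

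The 2 genes of sister separation differed in how their libraries scattered. Pttg1, the separase inhibitor securin, was at 27.8, 59.4 and 126 FPKM in wild-type against 90.6, 20.3 and 38.5 FPKM in Q-KO (-0.51, SE 0.62, limma adjusted p = 0.683). Its spread within each group was the widest of the members and larger than the difference between groups. Its log2 change was 0.03 with wild-type replicate 3 left out, -0.0078 with Q-KO replicate 2 left out and -1.04 with wild-type replicate 1 left out, and -0.53 after each library was centred within each chromosome. Espl1, separase itself, was at 22.8, 16.7 and 18.4 FPKM in wild-type against 16.6, 18.5 and 11.3 FPKM in Q-KO (-0.32, SE 0.20, limma adjusted p = 0.416), with overlapping groups.

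**Figure D2:**
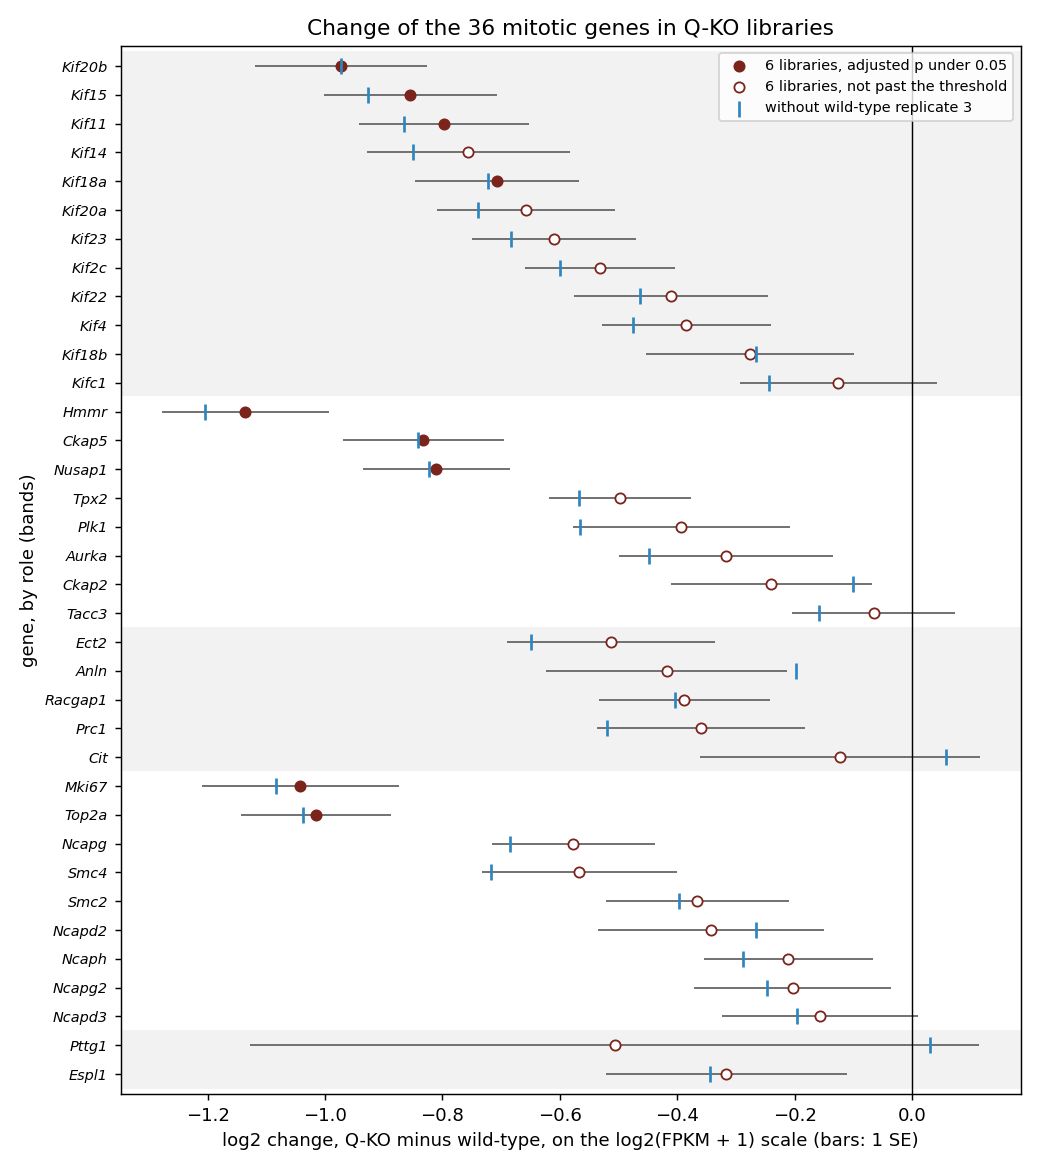
Log2 change of each of the 36 genes, Q-KO minus wild-type on the log2(FPKM + 1) scale, with bars of 1 SE from limma. Filled points are the 9 genes with an adjusted p under 0.05, open points the other 27, and blue ticks the change without wild-type replicate 3. All 36 points lie left of 0, and 2 ticks, those of Cit and Pttg1, lie right of it.

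The libraries contributed unequally. Averaged over the 36 members, the log2 level relative to the wild-type mean was 0.06, 0.00 and -0.05 in wild-type replicates 1, 2 and 3 and -0.40, -0.49 and -0.65 in Q-KO replicates 1, 2 and 3. Q-KO replicate 3 was the lowest of the 6 libraries for 26 members and also had the highest summed FPKM (641715, against 525134 to 565112 in the others); the part of this sum in the result was not tested. Wild-type replicate 3 was the lowest wild-type library for 21 members. Without it, 14 members passed limma's test, against 1.33% of all genes: the 9 above together with Kif14, Kif20a, Kif23, Smc4 and Ncapg. Of the 9 falls, 7 were kept when wild-type replicate 2 was left out and 6 when Q-KO replicate 1 was. Hmmr and Top2a were the 2 kept with wild-type replicate 1 left out, and with Nusap1 the 3 kept with Q-KO replicate 3 left out. None was kept in limma's test without Q-KO replicate 2, where 17 members, and 480 of all 11573 genes, were lower at an unadjusted p under 0.05 and the lowest adjusted p was that of Hmmr (0.0668, log2 change -1.18). In that fit the count over all genes dropped to 28, while the median change of the members was -0.46 as before.

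The wild-type libraries without Y-linked transcripts can be set aside by adding a term for them, which leaves wild-type replicate 3 as the only comparator. That lone library stands apart and is assumed to vary like the others, since the spread in this fit comes from the other libraries. In that fit the log2 changes of the 9 ran from -0.9996 for Hmmr to -0.66 for Kif11. Top2a and Kif20b changed by -0.97 each, Nusap1 by -0.79 and, not among the 9, Anln by -0.86. Kifc1 (0.11) and Tacc3 (0.12) were above 0. The median of the 36 members was -0.38 in it, against 0.08 over all genes. Hmmr and Top2a, like Kif18b and Pttg1, lie on chromosome 11, and Ckap2 on chromosome 8. After each library was centred within each chromosome, Hmmr changed by -1.16 and Top2a by -1.04. In that fit 15 members were lower, against 1.55% of all genes. Centring also moved the median of all genes from 0.07 to -0.003, and relative to that median the members' median was -0.53. Scaling by the median of ratios, which moved the median of all genes from 0.07 to -0.04, gave 15 falls among the members and 36 of 36 below 0, while 1.60% of all genes fell and 6389 of 11573 were below 0. Quantile normalization gave 14 and 36 of 36, against 1.81% and 6152 of all genes. Relative to the median of all genes, the members' median was -0.53 as deposited, -0.54 with median-of-ratios scaling and -0.48 with quantile normalization. With all 6 libraries, 74.9% of the calls over all genes were rises, and after quantile normalization and median-of-ratios scaling 54.0% and 55.7%.

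**Figure D3:**
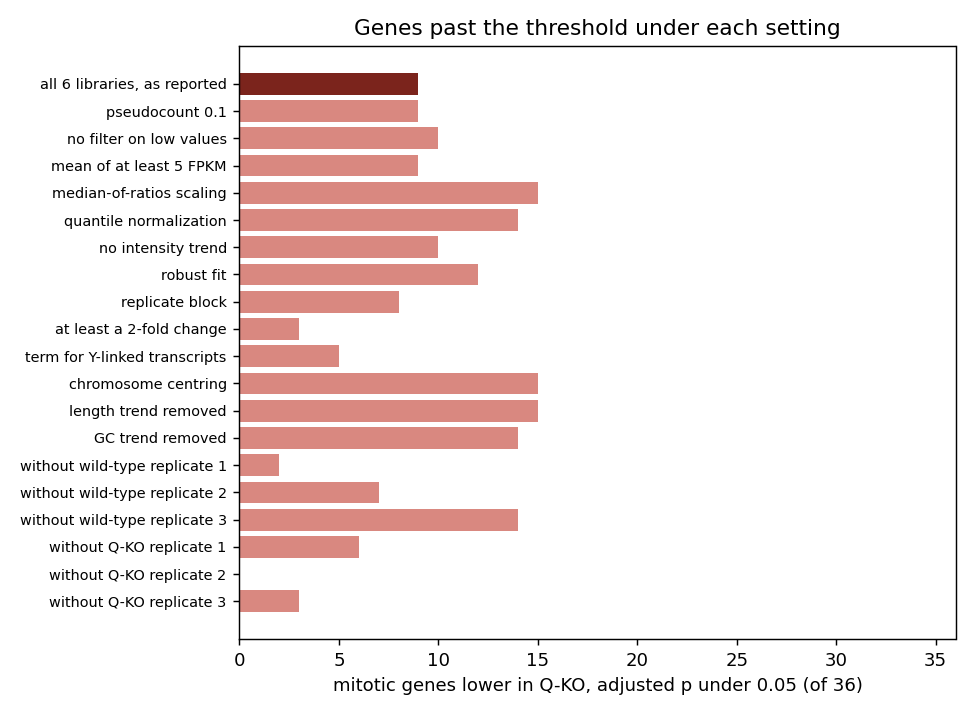
Number of the 36 genes that were lower in Q-KO libraries with a limma adjusted p under 0.05, for the fit as reported (dark bar, 9 genes) and for each alternative (pale bars). The count runs from 0 without Q-KO replicate 2 to 15 under 3 of the alternatives; with a mean of at least 5 FPKM only 34 of the genes were tested.

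Members with AT-rich transcripts had the larger median change. Those with under 45% GC ran from -1.14 for Hmmr to -0.20 for Ncapg2. Of the 15 members whose longest annotated transcript had under 45% GC, 8 fell, with a median log2 change of -0.71, against 37 of 2894 among all genes tested in that range. Of the 12 with 45 to 50% GC only Mki67 fell (median -0.46), against 26 of 2934, and of the 9 with 50% or more 0 fell in limma's test (median -0.32), against 54 of 5674. Those 9 were Kif2c, Aurka, Tacc3, Ncapd2, Cit, Kif18b, Plk1, Espl1 and Kifc1. Across the 36 members Pearson's r of GC content with log2 change was 0.54 and Spearman's rho 0.57, a description over genes that share the same 6 libraries. Over 11502 tested genes with a known GC content r was 0.12 and rho 0.15. After a smooth trend with GC content was removed from each library, 14 members were lower, against 1.49% of all genes. Hmmr changed by -1.12, Top2a by -1.03 and Kif18a by -0.63. Removing the trend also moved the median of all genes from 0.07 to -0.002. Relative to that median, the members' median was -0.48, against -0.53 as deposited. Transcript length was related to the change more weakly (r of -0.31 over the members). After a length trend was removed 15 members were lower, against 2.24% of all genes. The members' median relative to all genes was -0.52 in that fit.

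**Figure D4:**
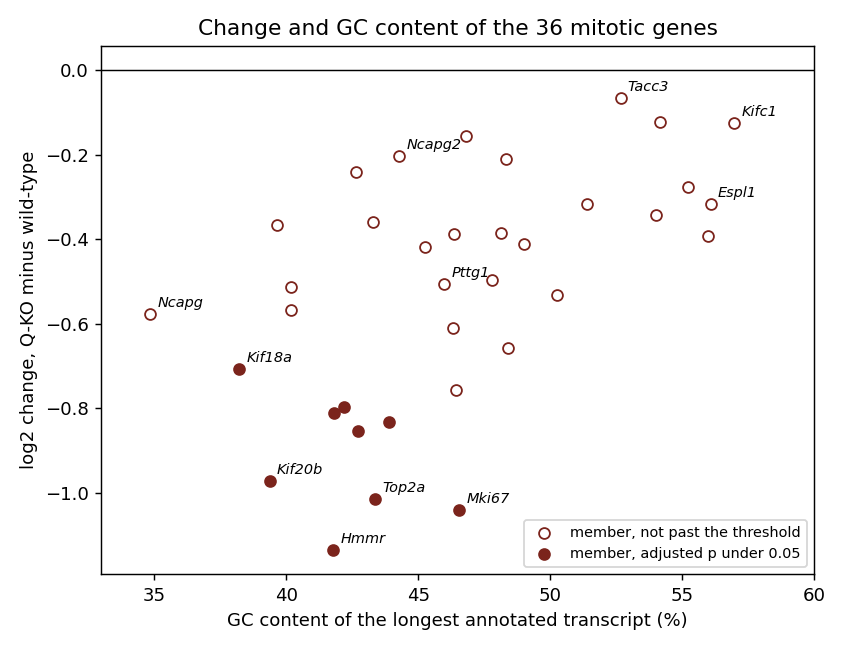
Log2 change of the 36 genes (y axis) against the GC content of the longest annotated transcript in percent (x axis), 1 point per gene, filled where the adjusted p was under 0.05. The 9 filled points lie between 38.2% and 46.6% GC, and the 9 genes with at least 50% GC are all open.

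Other mitotic genes were read from lists that are not part of the 36. Over all genes 1.02% fell and 3.04% rose in limma's test, and 775 of 11573 were lower at an unadjusted p under 0.05. Among 28 genes of microtubule nucleation and spindle poles, 3 fell and 0 rose: Dlgap5, which stabilizes kinetochore fibres (-0.78, limma adjusted p = 0.0187), Spag5, the pole protein astrin (-0.63, limma adjusted p = 0.0334), and Ckap2l, a relative of Ckap2 (-0.60, limma adjusted p = 0.049). Under the replicate block Spag5 and Ckap2l were lost, and with 1 library left out Spag5 passed in 0 and Ckap2l in 1 of 6 fits. In this list 6 of the 28 genes were lower and 0 higher at an unadjusted p under 0.05. The median of that list was -0.12, and its most abundant member Haus1, a subunit of augmin, was at 64.3 ± 9.33 and 64.9 ± 21.3 FPKM. Of 10 tested genes of the chromosomal passenger complex and cytokinesis, the kinase Aurkb fell, from 36.6, 37.4 and 31.8 FPKM to 19.6, 20.6 and 18.4 FPKM (-0.82, SE 0.13, limma adjusted p = 0.0155). Its change exceeded that of Aurka (-0.32); the difference between the 2 Aurora kinases was not tested. Of these 10 genes, 3 were lower and 0 higher at an unadjusted p under 0.05. The list's most abundant gene Rhoa, the GTPase that Ect2 activates, was at 176 ± 8.19 and 165 ± 5.59 FPKM (limma adjusted p = 0.693).

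Of 16 genes of cohesin and its regulators, 2 fell, against 1.02% of all genes, and neither is a subunit of the ring. At an unadjusted p under 0.05, 6 were lower, against 775 of all 11573 genes. The list also holds the condensin II subunit Ncaph2 (-0.19). Esco2, which acetylates cohesin during replication, was at 70.5, 69.6 and 72.2 FPKM in wild-type against 30.7, 26.6 and 31.8 FPKM in Q-KO (-1.23, SE 0.12, limma adjusted p = 0.00398), and stayed past the threshold without any 1 library. Sgol2, a protector of centromeric cohesin, was at 36.9, 40.0 and 31.6 FPKM and at 18.5, 18.4 and 17.5 FPKM (-0.95, SE 0.13, limma adjusted p = 0.0121). The ring subunits Smc1a (-0.46, limma adjusted p = 0.0649), Smc3 (-0.47, limma adjusted p = 0.125) and Rad21, the most abundant of the list (-0.28, limma adjusted p = 0.257), did not pass, and all 3 had separate groups. Over all genes, 9.44% had every Q-KO value below every wild-type value. The median of the list was -0.27.

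At an unadjusted p under 0.05, 775 of all 11573 genes were lower and 1718 higher. With 1.02% of all genes falling and 3.04% rising in limma's test, 0 calls do not set the short lists below apart from all genes. None of 22 tested kinesin genes without a known main role in mitosis passed limma's test (3 lower and 1 higher at an unadjusted p under 0.05), and their median was -0.01. Kif5b, the conventional cargo motor and the most abundant of them, was at 48.7, 45.5 and 46.9 FPKM in wild-type against 37.7, 29.7 and 19.0 FPKM in Q-KO (-0.74, SE 0.23, limma adjusted p = 0.115), with separate groups and a wide Q-KO spread. None of 10 tubulin genes passed either (0 lower and 1 higher at an unadjusted p under 0.05). The median of that list was 0.03, and Tuba1b was at 685 ± 135 and 649 ± 25.3 FPKM. Among Foxm1, Mybl2 and the 4 MuvB core genes Lin9, Lin37, Lin52 and Lin54, 0 passed limma's test (0 lower and 1 higher at an unadjusted p under 0.05). Mybl2, which encodes B-MYB, was at 130.07 ± 17.7 FPKM in wild-type against 130.2 ± 6.54 FPKM in Q-KO (log2 change 0.01, SE 0.14). Foxm1 changed by -0.42 (limma adjusted p = 0.245) with overlapping groups, and Lin37 by 0.58 (limma adjusted p = 0.0977) with every Q-KO library above the wild-type range. Of the 6 further genes that fell in these lists, only Esco2 passed without Q-KO replicate 2 and without wild-type replicate 1.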

How the data were processed

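The authors deposited 1 table of FPKM values, 1 per gene symbol and library. The tools STAR 2.5, Cufflinks, CASAVA and bcl2fastq 2.16, and build mm9, appear in the submitters' processing notes with no role or order. Not given in the sources used here are the annotation, the strand setting and the absolute depth. Judged from the steps between low values, wild-type replicate 1 was the shallowest library and the others were 1.1 to 1.22 times as deep, and no counting interval was computed. Of the rows, 1 stray header was dropped, and 0 sample columns were left unmapped.

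Values were analysed as log2(FPKM + 1) with limma 3.58.1 in R 4.3.3 (eBayes with an intensity trend, two-sided, Benjamini-Hochberg over all genes whose mean reached 1 FPKM, threshold 0.05). This scale understates changes of genes with low values. The fit was also run on simulated independent values, which lack the differences of wild-type replicate 3, so that run is not used as support here. Groups came from the sample titles. The members, the gene lists, the alternatives and the rule for named genes (values in each library for members past the threshold and for the largest and smallest change of each role; from the other lists the genes past the threshold and the most abundant one) were chosen with earlier results of these data known. The 6 members whose promoters are printed were chosen after their values were seen. Chromosomes, promoters, transcript length and GC content came from RefSeq and GENCODE M21 on GRCm38, matched by symbol, so they are not of the build of the files. Transcripts at least 85% identical over at least 40% of the length were looked for as close copies.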

Additional observations from a re-analysis of the deposited data

How the results depend on the processing

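The members' counts rest on 3 libraries per group, and FPKM hides how many fragments stand behind a value. Of the 36 members, 9 were lower; the count was 15 with median-of-ratios scaling, chromosome centring or a length trend removed, 14 with quantile normalization or a GC trend removed, 5 with the term for Y-linked transcripts, 3 with a minimum of a 2-fold change, and 0 to 14 when 1 library was left out. No member was higher under any of these. The median change of the members was -0.59 with median-of-ratios scaling, -0.38 when Y-linked transcripts had a term, and -0.54 to -0.43 when 1 library was left out. With a term for Y-linked transcripts the direction reversed for Kifc1 (0.11) and Tacc3 (0.12). When 1 library was left out, Kifc1 ran from -0.24 (wild-type replicate 3 out) to 0.038 (wild-type replicate 1 out), Tacc3 from -0.16 to 0.040 with the same libraries out, Cit from -0.31 (wild-type replicate 2) to 0.057 (wild-type replicate 3), with 0.052 lacking Q-KO replicate 3, and Pttg1 from -1.06 (Q-KO replicate 1) to 0.029 (wild-type replicate 3). None of these passed the threshold. Of the other lists, 6 genes were lower and 0 higher; the term for Y-linked transcripts gave 3 and 1, the 2-fold minimum 1 lower, and leaving out 1 library 1 to 5 lower.

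Over all genes, 118 were lower and 352 higher. The numbers were 78 and 188 at a mean of at least 5 FPKM, 185 and 233 with median-of-ratios scaling, 55 and 225 with the 2-fold minimum, and 231 and 663 when Y-linked transcripts had a term. Lower calls alone moved to 210 with quantile normalization, 179 with chromosome centring and 259 with a length trend removed. Leaving out 1 library gave 3 to 154 lower and 25 to 412 higher. The causes were not tested.

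The replicate numbers of the titles did not pair the samples: same-numbered libraries had correlations of deviations of -0.03, 0.01 and 0.02. With the number as a replicate block 8 members were lower, and Kif18a was lost; of the other lists 4 genes were lower, and Spag5 and Ckap2l were lost. Of the 9 members, Kif18a and Kif11 passed in 1 of the 6 leave-one-out fits, Kif15, Kif20b, Nusap1, Ckap5 and Mki67 in 3, and Hmmr and Top2a in 5.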
